A study of Mus musculus with 36 samples.

Results

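The regions described here are stretches of liver chromatin inside the first intron of a gene that carried H3K9me3, the trimethylation of lysine 9 on histone H3. They were chosen by annotation alone: each is a bin of nominally 500 bp on chromosomes 1 to 19 that the authors' deposited tables place in intron 1 of a transcript. The choice used the annotation and no measured change, but a bin had to lie in a called peak to be listed at all. There were 10292 such bins among 120683 in the comparison of ages in control females and 14141 among 148133 in control males. The tables comparing maternal obesity (MO) with control held 12738 first-intron bins of 140214 in females at 3 weeks, 15611 of 159357 in males at 3 weeks, 9533 of 116257 in females at 8 weeks and 8457 of 102145 in males at 8 weeks. First introns therefore made up between 8.34% and 9.83% of the autosomal bins of a table.

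H3K9me3 had been measured by ChIP-seq, the sequencing of DNA pulled down from crosslinked chromatin with an antibody, in liver tissue of mouse offspring. The series holds 32 ChIP libraries in 8 groups of 4, which are female or male offspring of control or obese dams at 3 or 8 weeks of age, and 4 input libraries not used here. Dams ate a Western-style diet or standard chow from before mating through gestation and lactation. Offspring were studied at 3 weeks, before they were weaned, or at 8 weeks, after 5 weeks in which both groups ate chow. All offspring, controls included, carried floxed Reg3g (fl/+ or fl/fl). The paper says that the animals included floxed littermate controls from a colony on a C57BL/6J background. Offspring of the MO and control groups had different dams. The sources used here do not say whether the libraries of both ages were prepared together, so age and preparation cannot be told apart. Whole liver was used, so a weaker mark in each cell and a smaller share of cells that carry the mark cannot be told apart either.

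H3K9me3 marks heterochromatin, the compact form in which DNA is poorly transcribed. It is written by the SETDB and SUV39H enzymes, read by HP1 proteins, and laid down on transposable elements with the help of zinc finger proteins that recognise repeat sequence. Introns hold many such repeats. The first intron is often the longest of a gene and, close to the promoter, can hold enhancers and alternative promoters. A mark in an intron can thus lie on a repeat, on a silenced regulatory element, or on the body of a gene that liver does not use.

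Sequences are shown for the bins that frame the range of change with age: the bins with the largest gains and losses in each sex, and a bin that was called in both sexes. Each is read 5′ to 3′ on the plus strand of GRCm38 and covers the central 300 bases, or the whole bin where it is shorter. The CG dinucleotides, where mammalian DNA can be methylated, are in capitals. In females, the bins with the largest gains lay in Gm14221 (chr2:160574966-160575265) and Prdm16 (chr4:154586053-154586352), each with 9 CG dinucleotides in the printed stretch, and those with the largest losses in Myo9b (chr8:71281838-71282137) and Mical3 (chr6:121074268-121074567), each with 1.
Gm14221: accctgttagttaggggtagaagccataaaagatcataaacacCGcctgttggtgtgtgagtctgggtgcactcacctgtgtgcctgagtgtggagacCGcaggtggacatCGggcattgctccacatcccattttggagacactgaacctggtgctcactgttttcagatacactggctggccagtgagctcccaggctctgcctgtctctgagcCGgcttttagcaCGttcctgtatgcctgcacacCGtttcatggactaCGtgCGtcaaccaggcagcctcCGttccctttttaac
Prdm16: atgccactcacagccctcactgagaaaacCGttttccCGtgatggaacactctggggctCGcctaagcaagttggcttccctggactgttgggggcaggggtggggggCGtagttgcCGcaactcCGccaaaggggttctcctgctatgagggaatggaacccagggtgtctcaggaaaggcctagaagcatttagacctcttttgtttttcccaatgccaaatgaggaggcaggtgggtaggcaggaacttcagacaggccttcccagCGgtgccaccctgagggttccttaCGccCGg
Myo9b: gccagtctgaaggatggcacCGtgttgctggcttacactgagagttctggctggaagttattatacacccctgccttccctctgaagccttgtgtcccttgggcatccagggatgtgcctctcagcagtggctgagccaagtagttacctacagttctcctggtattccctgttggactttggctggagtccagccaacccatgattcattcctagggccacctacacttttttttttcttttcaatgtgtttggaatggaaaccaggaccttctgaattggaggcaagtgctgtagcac
Mical3: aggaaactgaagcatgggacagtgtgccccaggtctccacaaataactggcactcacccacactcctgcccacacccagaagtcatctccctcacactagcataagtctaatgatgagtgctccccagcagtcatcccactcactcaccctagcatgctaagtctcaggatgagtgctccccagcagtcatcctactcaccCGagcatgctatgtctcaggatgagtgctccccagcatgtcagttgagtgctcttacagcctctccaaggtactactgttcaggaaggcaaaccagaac

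In males, the corresponding gains were in Gm49445 (chr15:93826827-93827126, 2 CG dinucleotides) and Sdhaf3 (chr6:7010120-7010397, 3 CG dinucleotides), and the losses in Tspan9 (chr6:128095949-128096248, 8) and in the gene model Gm20388 (chr8:121659475-121659774, 3). A pair called in both sexes was in Gm35572 (chr8:71771454-71771753), with 9 CG dinucleotides in the printed stretch.
Gm49445: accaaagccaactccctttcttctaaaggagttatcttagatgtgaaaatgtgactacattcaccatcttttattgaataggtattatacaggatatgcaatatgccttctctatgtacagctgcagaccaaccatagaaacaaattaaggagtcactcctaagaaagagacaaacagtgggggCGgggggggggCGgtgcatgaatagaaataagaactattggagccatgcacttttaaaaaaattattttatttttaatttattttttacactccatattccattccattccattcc
Sdhaf3: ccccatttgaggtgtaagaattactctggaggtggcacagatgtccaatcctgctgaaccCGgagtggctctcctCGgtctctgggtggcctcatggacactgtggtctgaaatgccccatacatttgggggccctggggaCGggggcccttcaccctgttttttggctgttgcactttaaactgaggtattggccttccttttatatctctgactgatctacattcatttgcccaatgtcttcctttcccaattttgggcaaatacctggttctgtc
Tspan9: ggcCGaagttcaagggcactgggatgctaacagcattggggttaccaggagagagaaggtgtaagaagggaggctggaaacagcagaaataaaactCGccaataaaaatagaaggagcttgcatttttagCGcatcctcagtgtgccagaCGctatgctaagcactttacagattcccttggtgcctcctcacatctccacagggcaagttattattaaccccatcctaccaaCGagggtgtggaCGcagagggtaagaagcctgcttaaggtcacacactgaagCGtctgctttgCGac
Gm20388: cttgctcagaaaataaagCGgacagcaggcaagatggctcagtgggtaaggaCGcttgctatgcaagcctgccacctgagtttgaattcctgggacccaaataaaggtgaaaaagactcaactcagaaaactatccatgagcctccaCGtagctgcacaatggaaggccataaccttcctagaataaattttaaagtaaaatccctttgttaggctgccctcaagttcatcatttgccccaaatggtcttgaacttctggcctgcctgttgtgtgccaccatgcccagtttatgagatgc
Gm35572: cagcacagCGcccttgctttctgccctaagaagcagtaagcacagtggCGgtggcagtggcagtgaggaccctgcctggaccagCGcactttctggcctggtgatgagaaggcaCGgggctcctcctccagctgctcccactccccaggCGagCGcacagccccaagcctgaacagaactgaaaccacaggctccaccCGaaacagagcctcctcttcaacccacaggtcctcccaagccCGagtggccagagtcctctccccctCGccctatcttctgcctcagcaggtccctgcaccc

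The annotation was checked against GENCODE. Of the 10217 first-intron bins of the female age table whose transcript was found there, 10210 had their midpoint in the intron named, and in males 14018 of 14036 did. The bins lay in 4058 genes in females and 4769 in males, and 2178 and 2344 of these genes held a single bin. Protein-coding genes hosted 76.0% of the bins in females and 76.5% in males, and long non-coding RNA genes 21.8% and 21.4%. The host introns were long: the median bin sat in an intron of 50.2 kb in females and 49.3 kb in males, 21.8 kb and 21.0 kb past the start of that intron. No bin was closer than 3001 bases to a transcription start site (TSS), since the authors' annotation assigns nearer bins to promoters. The gene with the nearest TSS was the host gene for 67.7% of the bins in females and 68.3% in males. In the rest the nearest TSS belonged to another gene model, and genes are named below by the host transcript. A bin in intron 1 of that transcript can also lie in an exon or a later intron of another.

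The intron of Gm20388, a gene model on chromosome 8 whose first intron spans 4384 kb and runs across many other genes, hosted 355 bins in females and 460 in males. The nearest TSS of these bins belonged to 49 and 60 different genes. Tshz2, a teashirt zinc finger gene, followed with 66 bins in males, and Asic2, an acid-sensing ion channel gene, with 63. Leaving out Gm20388 changed the number of called bins from 256 to 245 in females and from 605 to 587 in males.

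The first question was how the mark in first introns differed between control mice of 3 and of 8 weeks. Changes are log2 fold changes of 8 against 3 weeks, so a positive value is a stronger mark at 8 weeks, and a bin was called where its false discovery rate (FDR, the adjusted p of the authors' test) was under 0.05. In control females 256 of 10292 first-intron bins (2.49%) were called, 63 higher and 193 lower at 8 weeks. The background over all autosomal bins was 2.08%, with 0.812% called higher and 1.27% called lower. In control males 605 of 14141 bins (4.28%) were called, 223 higher and 382 lower, against a background of 4.36%, with 2.36% called higher and 2.0% lower. The share called was thus near the background in both sexes, while the called first-intron bins were more often losses: 24.6% were higher at 8 weeks in females against 38.9% of all called autosomal bins, and 36.9% against 54.2% in males. These shares are described and were not tested, since neighbouring bins are not independent. A bin was listed when its peak was present in at least 3 replicates of a group, so a weakly marked bin could enter through the age at which it was higher, which would set its direction; the part of this in the shares was not tested. The MO tables, which hold 1 age each, had more first-intron bins at 3 weeks than at 8 weeks in both sexes. The deposited FDR was set over more bins than the tables list: adjusting p over the listed bins gave 304 called first-intron bins in females, 76 of them higher, and 764 in males, 276 of them higher. With that adjustment, and after the median change of bins with like GC content and like signal was subtracted, 96 were called in females, 36.5% of them higher, and 216 in males, 52.8% of them higher. Of all autosomal bins 373 of 859 called were then higher in females and 1608 of 2455 in males.

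The introns further along genes gave similar shares. Of 21323 later-intron bins in females 2.30% were called and 26.5% of those were higher, and of 29582 in males 4.11% were called and 42.1% were higher. Promoter bins at 1 to 3 kb from a TSS were called in 2.49% of 8179 bins in females, with 31.4% higher, and in 4.06% of 10826 in males, with 42.0% higher. First-intron bins had a median change of -0.15 (females) and -0.18 (males), where all autosomal bins of either sex had -0.05. The median for later introns was -0.13 and -0.15, and for these promoter bins -0.19 and -0.21. The log2 changes of the central 80% of first-intron bins ran from -0.84 to 0.52 in females and from -0.96 to 0.62 in males.

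**Figure D1:**
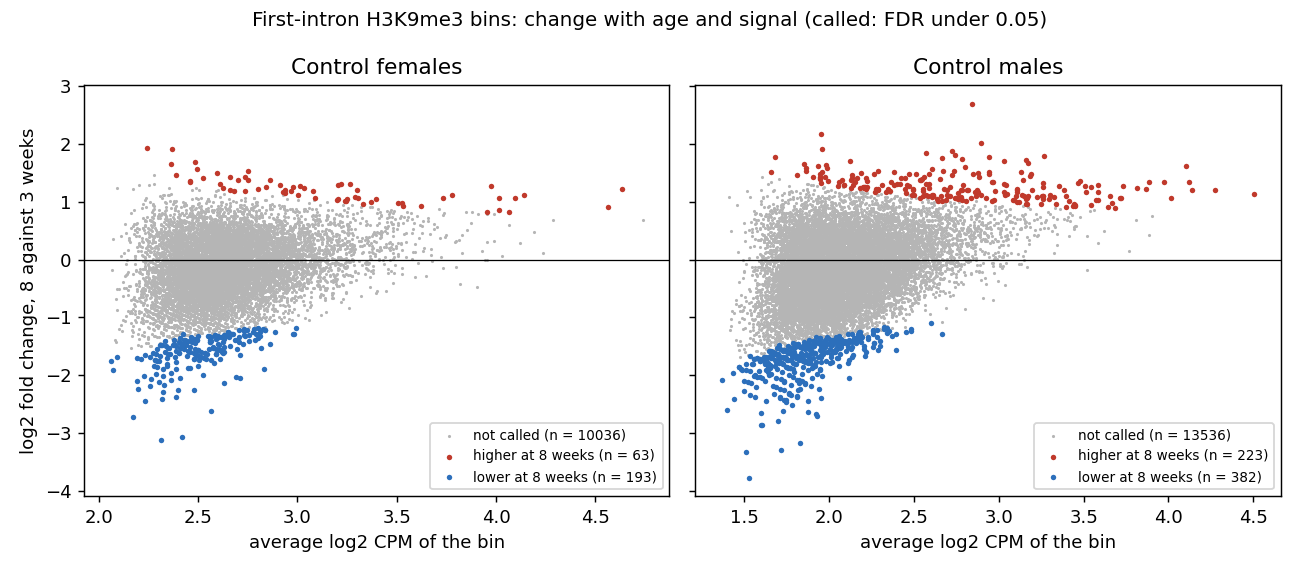
Log2 fold change of 8 against 3 weeks (vertical) against the average log2 CPM (horizontal) of each first-intron bin, in control females (left) and control males (right); grey points were not called, red points were called higher and blue points called lower at 8 weeks. Most called losses sit at low signal, where bins can enter through the age with the stronger mark, and in the strongest 20% of bins, 42 of 50 female and 172 of 185 male calls were higher.

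Gains and losses came from bins of different strength. Signal is given as the average log2 CPM, the depth-scaled read count, over the libraries compared. Called gains had a median log2 CPM of 3.03 in females and 2.74 in males, and called losses 2.50 and 1.85, around medians of 2.60 and 2.04 over all first-intron bins. The same split held over all autosomal bins, where called gains had 3.20 and 2.76 and called losses 2.50 and 1.87, so it is not particular to first introns. In the weakest 20% of the bins 4 of 72 called bins were higher in females and 3 of 184 in males, and in the strongest 20% 42 of 50 and 172 of 185 were higher. The plot of change against signal shows this as a red upper edge that runs to the right and a blue lower edge that stays at the left. Across first-intron bins the change rose with signal, with a rank correlation (Spearman) of 0.25 over 10292 bins in females and 0.35 over 14141 in males. These coefficients are over bins of the same libraries and carry no test. The size of the called changes was similar in both sexes, with a median gain of 1.21 in females and 1.23 in males and a median loss of -1.53 and -1.66. Over all autosomal bins the called gains had medians of 1.17 and 1.26 and the called losses -1.51 and -1.63.

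Repeat content separated gains from losses. Repeat content is given as the soft-masked share of the bases of a bin, which is the part the reference genome marks as interspersed repeat or simple sequence. Of 1064 female bins with over 75% of repeat sequence, 42 were called (3.95%) and 29 of those were higher at 8 weeks. Of 6951 bins with under 25%, 152 were called (2.19%) and 20 were higher. In males 121 of 1354 bins (8.94%) were called in the repeat class, 97 of them higher, against 337 of 9493 (3.55%), 74 of them higher, in the class with little repeat. The same classes over all autosomal bins had 2.89% called in the repeat class in females, 72.5% of them higher, and 7.95% in males, 83.3% of them higher. Repeat-rich bins thus leaned toward gains in first introns and over all autosomes. In the class with little repeat the first introns had the lower share of gains: 13.2% against 33.2% over all autosomal bins in females, and 22.0% against 46.3% in males. Later introns are not given by class here. Over all their called bins 26.5% were higher in females and 42.1% in males, beside 24.6% and 36.9% in first introns. The lower share is thus not shown to be particular to first introns. Removing the trend with GC and signal left 12 of 19 called repeat-rich bins higher in females and 21 of 29 in males, beside 104 of 166 and 442 of 554 over all autosomal bins. In the class with little repeat it left 17 of 57 (29.8%) and 56 of 119 (47.1%) higher, beside 39.5% and 62.6% over all autosomal bins, so the gap to the autosomal share was smaller than before in both sexes.

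CpG content showed a steeper split. Across first-intron bins the change also rose with GC content (rank correlation 0.23 in females and 0.19 in males) and, as above, with signal. No counts with the trend removed are given for the CpG classes, so a split by CpG apart from GC and signal was not tested. Among first-intron bins with over 4 CpG dinucleotides per 100 bases, 19 of 19 called bins were higher at 8 weeks in females and 63 of 64 in males. Among those with at most 1 per 100 bases, 12 of 91 and 21 of 190 were higher. The male exception was in Alx4, a homeobox gene of limb and skull patterning (chr2:93646963-93647463), where the log2 change was -1.29 with an FDR of 0.0280. Over all autosomal bins with over 4 CpG per 100 bases, 97.4% of the called bins were higher in females and 99.3% in males. Repeat-rich bins with over 2 CpG per 100 bases held most of the gains of the repeat class: 20 of 23 called were higher in females and 80 of 83 in males, while 9 of 19 and 17 of 38 were higher in repeat-rich bins with fewer. In bins with little repeat and over 2 CpG per 100 bases, 14 of 40 called bins were higher in females and 48 of 90 in males, against 65.7% and 82.3% of such bins over all autosomes. Later introns are not given by these classes either, so this gap is not shown to be particular to first introns. The plot of called shares by repeat and CpG content shows these classes beside the autosomal background.

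**Figure D2:**
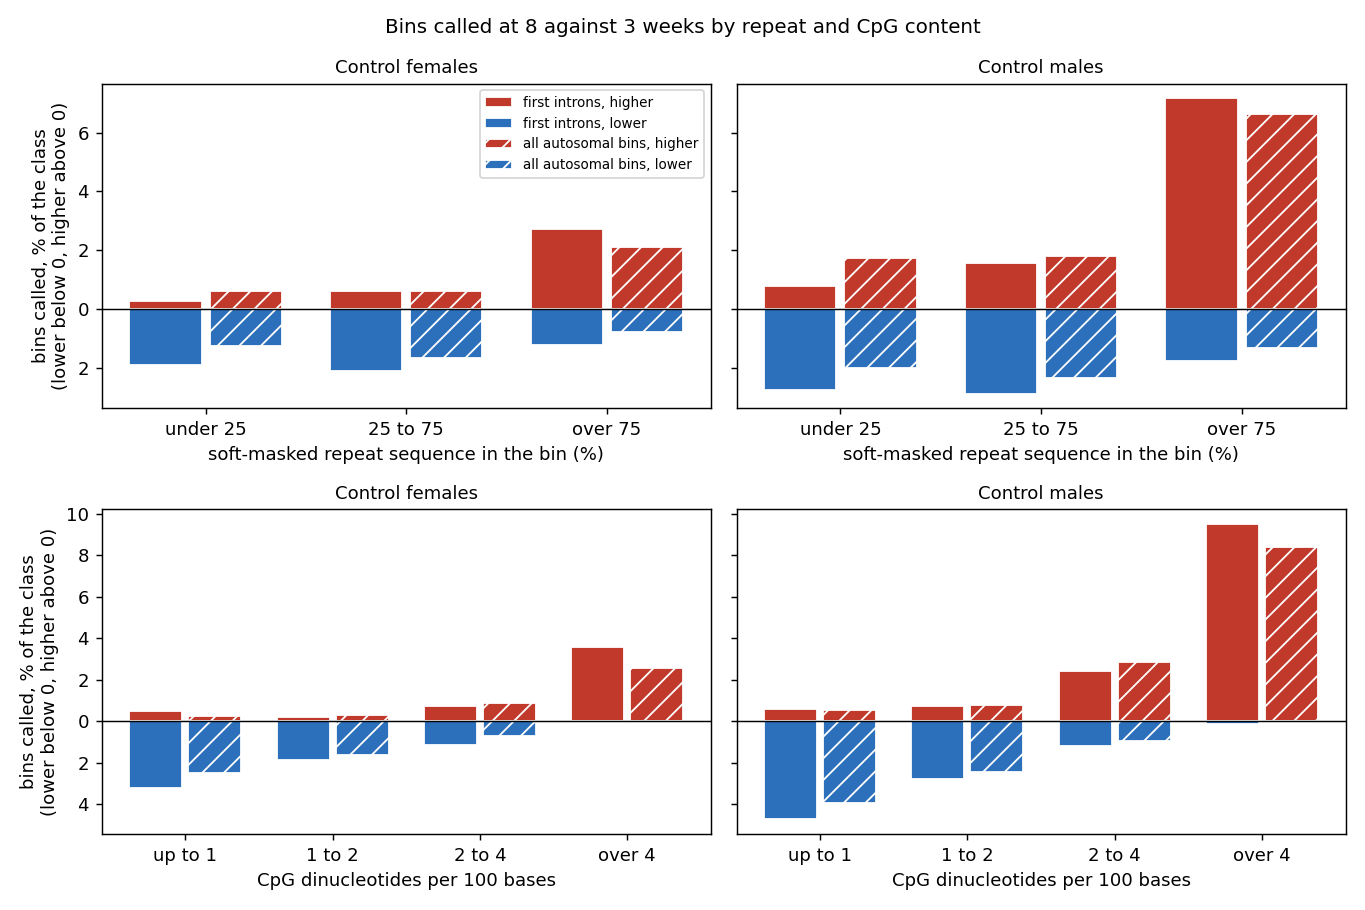
Share of bins called higher (red, above 0) and lower (blue, below 0) at 8 weeks, in percent of all bins of a class, for first-intron bins (plain bars) and all autosomal bins (hatched bars), by soft-masked share of the bin (top) and by CpG dinucleotides per 100 bases (bottom), in control females (left) and males (right). Gains rise in the repeat-rich and CpG-rich classes in both sexes, and 1 of 64 called male bins with over 4 CpG per 100 bases was lower.

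Distance from the nearest TSS moved the balance less. For the number of introns only the share called is given. At 3 to 10 kb from the nearest TSS 15 of 90 called bins were higher in females and 57 of 196 in males, at 10 to 50 kb 25 of 113 and 96 of 271, and beyond 50 kb 23 of 53 and 70 of 138. The share called was between 2.33% and 2.79% over these classes in females and between 4.10% and 4.85% in males. In transcripts with a single intron 3.03% of the bins were called in females and 4.82% in males, and in transcripts with over 5 introns 2.53% and 4.05%. In peaks of 1 bin, 11 of 96 called bins were higher in females and 46 of 179 in males, and in peaks over 2 kb 22 of 49 and 73 of 155. Shares over all autosomal bins or later introns are not given for these classes, so none of these differences is shown to be particular to first introns.

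Short motifs were searched on both strands in bins of full nominal length (500 bp). TTCNNNGAA, the core of STAT binding sites, was present in 11.0% (females) and 11.4% (males) of first-intron bins, beside 10.7% and 11.0% of all autosomal bins of that length. TGTTTAC, a forkhead motif, was in 5.7% and 4.9%, against 5.3% and 5.2%. CACGTG, the E-box of clock and MYC factors, was in 10.3% and 9.6%, against 10.1% and 9.8%. GGTCA, the core of nuclear receptor sites, was in 63.6% and 62.5%, against 62.9% and 63.1%. A match is a string of letters and not a bound site.

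The largest female gains lay in protein-coding genes and in non-coding gene models. Prdm16, a PR-domain zinc finger regulator of brown fat, gained 1.92 (chr4:154585953-154586453, FDR 0.00266) at a bin 50.5 kb into an intron of 108 kb. Gm14221, a long non-coding RNA gene, gained 1.93 (chr2:160574866-160575366, FDR 0.00413). Fam155a, which encodes a partner of the NALCN sodium leak channel, gained 1.70 (chr8:9358002-9358502, FDR 0.00313) in a bin that is all repeat sequence. The antisense gene Gm15287 gained 1.66 (FDR 0.0208) and Sgcd, the gene of the muscle membrane protein delta-sarcoglycan, gained 1.53 (chr11:47420658-47421158, FDR 0.00393), both in repeat sequence throughout. Abat, which encodes the mitochondrial enzyme that degrades the transmitter GABA, had the smallest p among gains (log2 change 1.22, FDR 4.77e-05) at a high signal of 4.63 log2 CPM.

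The largest female losses exceeded the largest gains in size. Over all called autosomal bins of females the median loss (-1.51) was also larger than the median gain (1.17). The losses in Myo9b, Mical3, Clmn, H2-DMa and Cdyl2 had signals from 2.17 to 2.56 log2 CPM, under the female median of 2.60. The gains in Gm14221, Prdm16, Fam155a and Gm15287 were under it too, from 2.24 to 2.48. Myo9b, an unconventional myosin, lost the most, with a log2 change of -3.12 (chr8:71281738-71282238, FDR 6.67e-06), 9.16 kb into its first intron and nearest to the start of Haus8. Mical3, an actin-oxidising enzyme, followed at -3.06 (chr6:121074168-121074668, FDR 1.69e-06). Both bins have 0.399 CpG per 100 bases, and their repeat content was 11.2% and 0%. Clmn, which encodes the actin-binding membrane protein calmin, changed by -2.72 (FDR 0.000276), and a second bin of its intron by -1.47 (FDR 0.0444). H2-DMa, a chaperone that loads peptides on MHC class II, changed by -2.61 (chr17:34126950-34127450, FDR 1.06e-05). Cdyl2, whose chromodomain protein binds methylated H3K9, changed by -2.38 (FDR 0.000156) and at a second bin by -1.40 (FDR 0.0279). Zfp638, a zinc finger gene, lost 2.03 in a bin with 90.0% repeat sequence (log2 change -2.03, FDR 0.000255), so repeat-rich bins also held losses.

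In males the largest gain was in Gm49445, a long non-coding RNA gene (chr15:93826795-93827158), with a log2 change of 2.70 and an FDR of 1.62e-09. Sdhaf3, an assembly factor of succinate dehydrogenase, gained 2.17 (chr6:7010120-7010397, FDR 0.000297) and Tshz2 gained 2.01 (chr2:169831067-169831567, FDR 1.33e-06). Neuronal and kinase genes came next: Dner, a Notch ligand of neurons, gained 1.91 (FDR 0.00119), the postsynaptic scaffold gene Dlgap1 gained 1.89 (FDR 1.97e-05) and Mapk4, an atypical MAP kinase, gained 1.85 (FDR 5.03e-05). Eci2, an enzyme of fatty acid oxidation, gained 1.62 (chr13:35012682-35013182, FDR 3.00e-06) in a bin with 99.0% repeat sequence and 5.99 CpG per 100 bases, at a signal of 4.10 log2 CPM. Vmn2r18, a vomeronasal receptor gene, gained 1.68 (FDR 1.42e-05) and Casz1, a zinc finger regulator of heart and nerve development, gained 1.77 (FDR 1.72e-05).

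Male losses reached further. Tspan9, a tetraspanin, changed by -3.77 (chr6:128095849-128096349, FDR 1.20e-05), a 13.7-fold drop at a low signal of 1.53 log2 CPM. Gm20388 changed by -3.34 (chr8:121659375-121659875, FDR 5.53e-05) at a bin whose nearest TSS is that of Zcchc14. Gtf2ird1, a transcription factor gene of the Williams syndrome region, changed by -3.29 (FDR 1.46e-05) and the splicing regulator Rbfox1 by -3.18 (FDR 3.48e-06). Mgat5, which branches N-glycans on surface proteins, changed by -2.87 (FDR 0.000359). The signal of these 5 bins was between 1.51 and 1.83 log2 CPM, under the male median of 2.04. All 32 bins named by size or p in the age tables kept their call and sign after the trend with GC and signal was removed. They had been picked for a large change or a small p, so this says little about the other called bins. Over all first-intron bins 96 were called in females and 216 in males with the trend removed, against 304 and 764 by the same adjustment without it.

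Some introns held several called bins. In males 62 of 502 genes with a called bin had 2 or more, and in 45 of the 62 all called bins moved in 1 direction; in females these numbers were 13 of 232 and 8. Sdhaf3 had 4 of 8 male bins called, all higher, with log2 changes from 1.17 to 2.17, and the median of its 8 bins was 0.94. Its called male bins were 83.8% to 100% repeat sequence, and in females 1 bin of this intron was higher (1.20, FDR 0.0234) and 1 lower (-1.42, FDR 0.0157). In Arl15, a small GTPase gene, 4 of 18 male bins were higher, from 1.03 to 1.28, and all lay 77.5 kb or more from its start. In Smyd3, a lysine methyltransferase gene, 4 of 16 were higher, from 1.08 to 1.75, between 75.8 and 92.4 kb into the intron, while the median of the 16 bins was -0.11. The 66 male bins of Tshz2 lay in the first introns of 2 transcripts, and the 4 called ones among the 37 of the longer intron, 3 higher and 1 lower: the bins at 198 and 205 kb into the intron gained 2.01 and 1.80 and the bin at 45.5 kb changed by -1.36 (FDR 0.0330). The plot of bins along introns shows that the gains of these genes lay among bins that were not called. Mapk4 had 6 of 15 male bins called, 5 higher and 1 lower. Asic2 had 4 of 63 called, 1 higher and 3 lower. In females Pitpnm2, a phosphatidylinositol transfer gene, had 3 of 14 bins called, all lower, from -2.19 to -1.29, and the non-coding gene model Gm49329 had 3 of 12, with 2 higher and 1 lower.

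**Figure D3:**
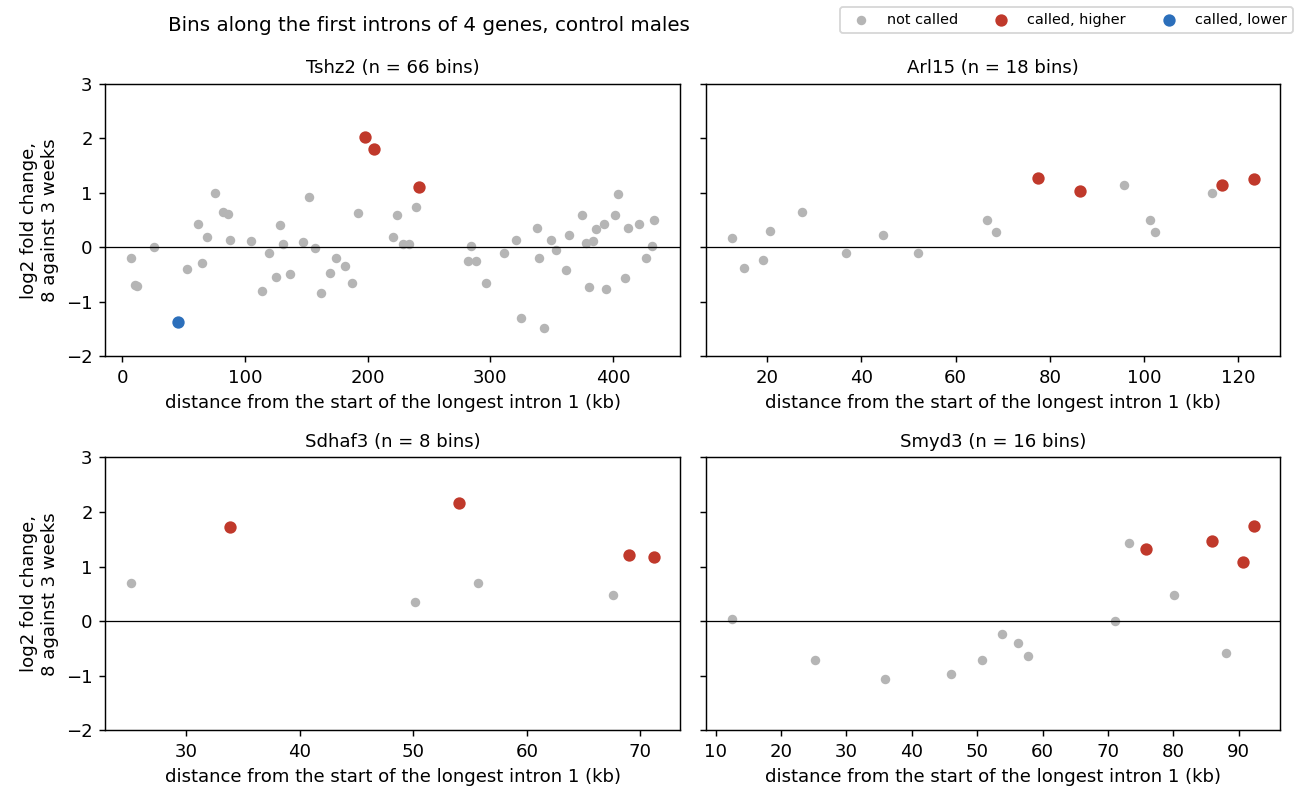
Log2 fold change of 8 against 3 weeks in control males (vertical) against the distance of each bin from the start of the longest first intron of its gene in kb (horizontal), for Tshz2, Arl15, Sdhaf3 and Smyd3; each point is 1 bin, red where called higher, blue where called lower and grey where not called. Called gains of Arl15 and Smyd3 lie beyond 75 kb, and those of Tshz2 at 198, 205 and 242 kb. The 29 Tshz2 bins in the first intron of another transcript are drawn on the same scale.

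The control females and males share no library, so their changes can be set side by side. Peaks were defined by sex and 11 first-intron bins had identical coordinates in both tables. By an overlap of over 50% of the shorter bin there were 4763 pairs, which used 46.3% of the female and 33.7% of the male bins. Over the pairs the female and male changes had a rank correlation (Spearman) of 0.38 and a linear one (Pearson) of 0.41. The sign was the same in 62.6% of the pairs, beside 64.0% of the 58437 pairs over all autosomal bins. The pairs share a genome sequence and a processing, and no test was made. Of 86 called female bins with a male partner, 77 changed in the same direction in males. The median male change was 1.09 at the 38 female gains and -0.57 at the 48 female losses. Of 199 called male bins with a female partner, 173 changed in the same direction in females, with a median female change of 0.61 at 143 gains and -0.43 at 56 losses. The like shares for called bins over all autosomes are not given here, so this agreement is not shown to be particular to first introns. Whether the effect of age differs between the sexes was not tested.

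Both sexes had a call at 23 pairs, which is 8.98% of the called female and 3.80% of the called male bins. Over all autosomal bins 346 pairs were called in both sexes, 14.5% of the called female and 5.39% of the called male bins, with 318 higher, 27 lower and 1 in opposite directions. Of the 23 first-intron pairs, 19 were higher and 4 were lower in both sexes, and none went in opposite directions. Over 4 CpG per 100 bases were found in 11 of the 23 female bins, and over 75% of repeat sequence in 9. The predicted gene Gm35572 gained 1.07 and 1.34 (FDR 0.00251 and 0.000152), and Gm15218 1.32 and 1.38 (FDR 0.00324 and 0.000950). Slc6a20b, a transporter gene, gained 1.29 and 1.18, and Rala, a Ras-like GTPase gene, gained 1.23 and 1.48 in a bin that is all repeat. E430024P14Rik gained 0.91 and 1.21, and the vomeronasal receptor gene Vmn2r57 1.43 and 1.77. The pairs that were lower in both sexes, named after their values were seen, were in E430024I08Rik (-1.33 and -2.05), Rab8b, a GTPase gene of vesicle traffic (-1.28 and -1.24), Dock1, an activator of Rac (-1.91 and -1.52), and A230108P19Rik (-1.52 and -1.61).

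**Figure D4:**
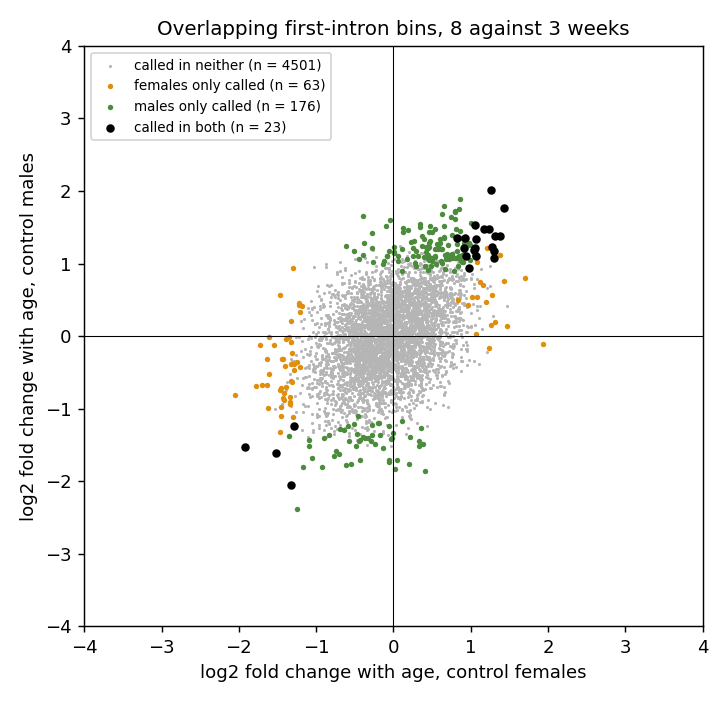
Log2 fold change with age in control females (horizontal) and control males (vertical) for the 4763 overlapping pairs of first-intron bins; orange points were called in females, green in males and black in both, and grey in neither. All 23 black points lie in the lower left or upper right corner, 19 of them in the upper right.

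Gene lists were used to describe what the host genes do. Cell adhesion genes had 1 of 127 bins called in females and 6 of 145 in males, 4 higher and 2 lower, or 0.787% and 4.14% where all first-intron bins had 2.49% and 4.28%. In males the cadherin gene Cdh18 rose at 2 bins (log2 changes 1.51 and 1.09, FDR 0.00391 and 0.0119) and Cdh13 at 1 (1.42, FDR 0.00463), and other bins of the same introns fell: Cdh13 changed by -1.49 in males (FDR 0.0444) and Cdh18 by -1.21 in females (FDR 0.0495). With the trend removed, 2 of the 6 male adhesion calls and 0 of the 1 female call were kept. Wnt pathway genes had 5 of 80 male bins called (6.25%, against 4.28% of all male first-intron bins, of which 382 of 605 called were lower), and all 5 were lower: the co-receptor gene Lrp5 (-1.65, FDR 0.0153), the receptor gene Ror2 (-1.60, FDR 0.0162), the ligand gene Wnt7b (-1.58, FDR 0.0169), Apc, a brake on the pathway (-1.44, FDR 0.0223), and Rnf43, an inhibitor of Wnt receptors (-1.28, FDR 0.0372). In females 1 of 42 was called, at Ror2 (-1.40, FDR 0.0419). Apc alone of the male Wnt bins stayed under an FDR of 0.05 when the trend was removed, and each of the 5 kept its sign. Collagen and matrix genes had 1 of 54 bins called in females and 4 of 75 in males (1.85% and 5.33%), all lower. With the trend removed, the female call and 2 of the 4 male calls were kept. Col23a1, a transmembrane collagen gene, was lower in both sexes at neighbouring bins, by -2.25 in females (chr11:51292934-51293434, FDR 0.000580) and -2.39 in males (chr11:51295321-51295821, FDR 0.00137).

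Zinc finger genes had 2 of 155 bins called in females, both lower, and 12 of 195 in males, 8 higher and 4 lower, or 1.29% and 6.15%, against 2.49% and 4.28% of all first-intron bins. The male gains were in Zfp995, Zfp938, Zfp937, Zfp935, Zfp951, Zfp873, Zfp933 and Zfp943, with log2 changes from 1.00 to 1.23. Zfp995 (log2 change 1.08, FDR 0.00520) and Zfp938 (1.04, FDR 0.0103) had high signals of 3.71 and 3.57 log2 CPM. None of the 8 gains stayed under an FDR of 0.05 when the trend was removed, although each kept its sign. The male losses included Zfp462 (-1.67, FDR 0.00572) and Zfp423 (-1.66, FDR 0.0169), and the second female loss beside Zfp638 was in Zfp346 (-1.88, FDR 0.00200). Synaptic receptor and ion channel genes, which are little used in liver, had 6 of 256 bins called in females, 3 higher and 3 lower, and 12 of 312 in males, 4 higher and 8 lower (2.34% and 3.85%); with the trend removed 2 and 4 of these calls were kept. Kcnma1, a large-conductance potassium channel gene, lost 2.25 in males (log2 change -2.25, FDR 0.000623) and Kcnip1, a potassium channel subunit gene, was lower in both sexes at different bins (-1.54 in females, FDR 0.00771; -1.40 in males, FDR 0.0439). The male Kcnip1 call was lost with the trend removed and the female one was kept.

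Lists of hormone and metabolic genes held between 0 and 3 called bins each, with called shares up to 5% (females) and 4.55% (males), where all first-intron bins had 2.49% and 4.28%. Nuclear receptor genes had 0 of 59 called in females and 3 of 79 in males: Esrrb (-1.85, FDR 0.00850), Rora (-1.40, FDR 0.0247), which also belongs to the clock list, and Vdr, the vitamin D receptor (1.49, FDR 0.0229). Growth hormone, insulin and growth factor signalling genes had 0 of 52 and 3 of 66, in the protein kinase C genes Prkcq (-1.68, FDR 0.0177) and Prkce, with 1 bin lower (-1.70, FDR 0.0212) and 1 higher (1.07, FDR 0.0456). Clock genes had 1 of 20 in females, at Nfil3 (-1.63, FDR 0.0266), a repressor of the clock, and 1 of 36 in males. Lipid metabolism genes had 1 of 30 in females, at the lipoprotein receptor gene Lrp1b (1.18, FDR 0.0424), and 0 of 47 in males, and drug and steroid metabolism genes 1 of 40, at Ugt1a10 (-1.40, FDR 0.0491), and 0 of 40. Of the age calls in these lists, those of Vdr and Lrp1b were kept when the trend was removed and the others were not. Bins of the Ugt1a locus share exons among overlapping genes, so the host is uncertain. No bin was called in the 22 bins of H3K9 methylation machinery genes in either sex, or in the 6 female and 7 male bins of hepatocyte transcription factor and marker genes. The smallest unadjusted p of the exact test in females and males was 0.00492 and 0.0104 for the machinery genes and 0.0343 and 0.154 for the hepatocyte genes.

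The second question was whether MO altered the mark in first introns. No first-intron bin had an FDR under 0.05 in any of the 4 MO tables, and no autosomal bin did. The lowest FDR of a first-intron bin was 0.526 in 3-week females, 0.285 in 3-week males, 0.696 in 8-week females and 1 in 8-week males. The authors' exact test left 7.40% (females) and 8.56% (males) of the 3-week bins, and 5.95% and 5.63% of the 8-week bins, under an unadjusted p of 0.05, below the 7.74%, 8.83%, 7.04% and 6.51% of all autosomal bins. Bins with an unadjusted p under 0.001 are therefore listed as a description. At 3 weeks these were 35 first-intron bins in females, 20 higher and 15 lower with MO, or 0.275% against a background of 0.212% (0.105% higher and 0.107% lower), and 54 in males, 30 higher and 24 lower, or 0.346% against 0.278% (0.185% higher and 0.0926% lower). At 8 weeks they were 10 in females, 6 higher and 4 lower, or 0.105% against 0.168% (0.0693% higher and 0.0985% lower), and 7 in males, 2 higher and 5 lower, or 0.0828% against 0.112% (0.0483% higher and 0.0641% lower).

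The MO bins named are those with the smallest p in each direction. In females at 3 weeks a bin of Sp2, a zinc finger transcription factor gene, had a log2 change with MO of -1.90 (chr11:96972009-96972353, exact p = 2.91e-05, FDR 0.526). Rxra, which encodes the retinoid X receptor, the shared partner of many nuclear receptors, had -1.75 (chr2:27682705-27683205, exact p = 3.16e-05). Cpt1a, the carnitine palmitoyltransferase that admits fatty acids to liver mitochondria, had 1.45 (chr19:3336935-3337435, exact p = 0.000101), and the non-coding gene Gm6712 had 1.23 (exact p = 7.31e-05). In males at 3 weeks the values were -1.80 for St6galnac3, a sialyltransferase gene (exact p = 1.71e-05, FDR 0.285), -1.78 for Ube2v1, a ubiquitin conjugation gene (exact p = 2.58e-05), 1.67 for Map6, a microtubule stabiliser gene (exact p = 5.23e-05), and 1.37 for Usp14, a proteasome deubiquitinase gene (exact p = 4.98e-05). St6galnac3 also held a listed bin of the opposite sign, at 1.48 (exact p = 0.000160). None of these bins had a deposited FDR under 0.05.

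At 8 weeks, by the same choice in each direction, the female bins were in Adam29, a gene of the ADAM metalloprotease family (log2 change 1.38, exact p = 9.87e-05), Tram2, a gene of protein translocation (1.76, exact p = 0.000207), Mcu, the mitochondrial calcium uniporter gene (-1.18, exact p = 0.000458), and A730056A06Rik (-1.45, exact p = 0.000498). In males listed bins included those of Filip1l (-2.08, exact p = 8.07e-05), 2610037D02Rik (-1.41, exact p = 0.000321) and Plcl1, an inactive phospholipase gene (1.35, exact p = 0.000586). Their FDR was at least 0.696 for the female and 1 for the male bins.

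The same bins were followed from 1 age to the other, since the libraries of the 2 ages differ. Of the 35 female bins listed at 3 weeks, 9 had an overlapping bin at 8 weeks, 6 with the same sign and 1 with an unadjusted p under 0.05. That bin was in BC024063, where the log2 change with MO was 1.06 at 3 weeks (exact p = 0.000221) and 1.02 at 8 weeks (exact p = 0.00158). Of the 54 male bins 11 had a partner at 8 weeks, 3 with the same sign and 0 with a p under 0.05. In the other direction, 5 of the 10 female bins listed at 8 weeks had the same sign at 3 weeks and 2 of 4 male bins with a partner did, and 0 had a p under 0.05. Fewer first-intron bins were present at 8 weeks (9533 and 8457) than at 3 weeks (12738 and 15611), so a bin can lack a partner whatever MO did. The share of all first-intron bins with a partner is not given here. These counts therefore do not show whether a change with MO persisted. BC024063 held a listed bin in males at 3 weeks too, at another position (0.96, exact p = 0.000506). Ifnar2, an interferon receptor gene, also had listed bins in both sexes at 3 weeks, at -1.47 in females (exact p = 0.000381) and -1.22 in males (exact p = 0.000664), again at different bins. Gm20388 had 1 of 414 bins listed in females (1.51) and 1 of 486 in males (-1.33), with opposite signs. Nrg2 was listed in males at 3 weeks (-1.38) and in females at 8 weeks (-1.40), and Hs6st3 with opposite signs (1.00 and -1.39).

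Some bins stood out for both age and MO, but those tables share control libraries, so their values are given side by side with no comparison. Shared controls of 3 weeks push both values to the same sign, and shared controls of 8 weeks push them to opposite signs. The signs below follow that pattern, so they do not show that a bin responds to both. The repeat bin of Sgcd had a log2 change of 1.53 with age and 1.38 with MO at 3 weeks in females, which share the control libraries of 3 weeks. The bin of Gm6712 had 1.19 with age (FDR 0.0145) and 1.23 with MO at 3 weeks. The bin of Tram2 had -1.81 with age (FDR 0.0111) and 1.76 with MO at 8 weeks, and that of 2610037D02Rik 1.30 with age in males (FDR 0.0157) and -1.41 with MO at 8 weeks. In Mgat5 the values in males were -2.87 with age and -1.54 with MO at 3 weeks.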

How the data were processed

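H3K9me3 ChIP-seq of mouse liver was analysed from 6 deposited tables, each a comparison of 2 groups. As the study's methods describe, the authors mapped reads with BWA to mm10 (GRCm38), called broad peaks with MACS2 in each library, removed blacklisted regions, kept peaks found in at least 3 replicates, merged them within each sex, cut them into 500 bp bins, counted reads with featureCounts, tested each contrast with the exact test of edgeR and annotated bins with ChIPseeker. The deposited log2 fold changes and log2 CPM, and the deposited p-values and FDR (adjusted p), come from that test; how libraries were scaled is not given in the sources used here. Each table lists 1 bin per peak, and how it was chosen is not given either. The tables hold no value per library, so depth is unknown, replicate errors cannot be given and the planned count tests were replaced by the deposited p-values. The study's methods call the 4 samples of a group biological replicates; whether they come from separate litters is not given in the sources used here.

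Bins on chromosomes 1 to 19 annotated to intron 1 were selected. The sign of the age contrast was turned so that positive is higher at 8 weeks. CpG, GC and soft-masked shares were read from the RefSeq GRCm38 genome, and intron positions from a GENCODE mouse annotation. For the trend removal, the median change in each class of GC decile by log2 CPM decile was subtracted, the standard error was approximated from the p-value, and p-values were adjusted again over the listed bins; this step was tested on simulated data with 20000 bins. Named bins were the 6 largest gains and 6 largest losses among called bins and the 4 others with the smallest p for age in each sex, the 2 bins with the smallest p in each direction in each MO table, and the 8 pairs called in both sexes with the smallest adjusted p. Some of these bins and 1 gene list are not reported here. The members and gene lists were chosen with earlier results of these data known. Alternatives covered thresholds, signal filters, peak length, host assignment and the trend. Python 3.11.15, numpy 2.4.6, pandas 2.3.3, scipy 1.17.1 and matplotlib 3.10.9 were used. The 4 input libraries were not used.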

Additional observations from a re-analysis of the deposited data

How the results depend on the processing

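The number of called first-intron bins for age (256 in females, 605 in males) was 81 and 194 at an FDR under 0.01, 446 and 989 at an FDR under 0.1, 122 and 350 above the table's median signal with p adjusted again over those bins (92 and 259 by the deposited FDR, an alternative chosen after seeing the data), 96 and 216 with the trend removed (304 and 764 by adjustment over the listed bins alone), and 96 and 179 in peaks of 1 bin; it was 403 in males where the nearest TSS was that of the host. The share of called bins that were higher (24.6% and 36.9%) passed to the other side of 50% above the median signal (54.1% and 73.4% with the new adjustment, 55.4% and 76.4% by the deposited FDR) and, in males, with the trend removed (52.8%); it was 36.5% in females with the trend removed, 11.5% and 25.7% in peaks of 1 bin and 42.3% in males at an FDR under 0.01. In bins with under 25% repeat it was 29.8% and 47.1% with the trend removed, 29.6% and 61.2% above the median signal (26.8% and 63.2% by the deposited FDR), and 3.51% and 9.47% in peaks of 1 bin. In male bins with over 75% repeat it was 92.3% above the median signal (93.6% by the deposited FDR) and 65.1% in peaks of 1 bin. The cause was not tested. The number of listed MO bins in females at 3 weeks (35) was 244 at p under 0.01, 3 at p under 0.0001, 0 at an FDR under 0.05, 10 above the median signal and 13 in peaks of 1 bin; in males at 3 weeks (54) these were 341, 11, 0, 22 and 20, and in females at 8 weeks (10) 107, 1, 0, 5 and 6, with 5 where the nearest TSS was that of the host. In males at 8 weeks (7) there were 99, 1 and 0 by threshold and 2 in peaks of 1 bin. With identical coordinates required, 0 pairs were called in both sexes, against 23.

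No paired analysis was possible because the tables hold no values per library, and for the same reason leaving out single replicates was not run.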
